A study of Mus musculus with 8 samples.

Results

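Integrins, laminins and the focal adhesion genes that tie integrins to the cytoskeleton were followed in mouse haemogenic endothelium, the endothelium from which the first blood cells emerge. The set holds 46 genes, taken by symbol from the 41128 genes of the count table, and 42 of them passed the filter on low counts and were tested among 14179 genes. It consists of 12 integrin α chains, 6 integrin β chains, 9 laminin chains, 4 linkers of the basement membrane, 4 integrin activators, 4 members of the ILK complex, 3 adhesion signalling proteins and 4 proteins that link adhesions to actin. Itga10, Itgb6, Itgb8 and Lama2 did not pass the filter.

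Integrins are receptors of 1 α and 1 β chain that hold cells to the extracellular matrix, and the β chain carries the tail to which talin and kindlin bind to activate the receptor. Laminins are trimers of an α, a β and a γ chain that form the first layer of the basement membrane under endothelium, where nidogen and perlecan link them to collagen IV. Clustered integrins build focal adhesions, in which the ILK complex, focal adhesion kinase, vinculin, zyxin and tensins join the receptor to actin filaments. Endothelial cells sit on such a membrane, and cells that become blood round up and leave it.

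The cells were differentiated from embryonic stem cells of mouse strain C57BL/6. They came from a line labelled Hdac2 lox/lox and a line labelled Hdac1 lox/lox, in which both copies of the gene for the histone deacetylase HDAC2 or HDAC1 carry lox sites, the targets of Cre recombinase. Each line was given 4OHT (4-hydroxytamoxifen, a ligand used to switch on tamoxifen-dependent Cre) or EtOH (ethanol, its solvent), and each of the 4 groups holds 2 libraries. The labels name no Cre driver, no line without lox sites and no origin of the replicates, so p-values measure only the spread between these libraries, which may be technical, and an effect of 4OHT itself or of Cre cannot be told apart from loss of the gene. The libraries are called Hdac2 4OHT, Hdac2 EtOH, Hdac1 4OHT and Hdac1 EtOH below.

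Levels are CPM, counts scaled to library size with TMM factors, given for replicate 1 and then replicate 2. Fold changes are on the log2 scale, 4OHT over EtOH unless stated, with their standard error after the ± sign, and a gene is said to have risen or fallen where its Benjamini-Hochberg adjusted p in edgeR's quasi-likelihood test, over all 14179 genes, was under 0.05. Intervals are unadjusted 95% intervals of the log2 fold change. Libraries held 10215792 to 19552380 counts. Transcripts of the targeted genes did not check the labels. Hdac2 had 149 and 149 CPM in the Hdac2 4OHT libraries, against 165 and 151 CPM in the Hdac2 EtOH libraries, and Hdac1 had 6.99 and 7.12 CPM in the Hdac1 4OHT libraries, against 5.78 and 5.60 CPM in the Hdac1 EtOH libraries. The defining endothelial genes were present in every library, with Cdh5 at 745 to 3026 CPM and Pecam1 at 441 to 1155 CPM, as was Runx1, the factor that haemogenic endothelium needs to form blood, at 65.8 to 256 CPM. The lines also differ in Y-linked transcripts. Ddx3y was at 25.8 to 45.7 CPM in the 4 Hdac1 libraries and at 0.324 to 0.889 CPM in 3 Hdac2 libraries, but at 4.58 CPM in Hdac2 EtOH replicate 2, so that library stands apart from the other 3 of its line.

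In the Hdac2 line most of these genes were higher with 4OHT. Of the 42 tested members 28 rose and 2 fell, where 18.9% of all genes tested rose and 17.2% fell. All 4 linkers of the basement membrane rose, as did the laminin chains Lama1, Lama4, Lama5, Lamb1, Lamb2 and Lamc1, 6 integrin α chains and the shared integrin β1 chain, and the strongest rise by adjusted p was that of tensin 1. Fermt3, the kindlin of blood cells, and Lims1 fell. The median log2 fold change was 1.33 over the 42 members and -0.02 over all genes tested. The summed level of the 46 members was 14756 and 14858 CPM in the Hdac2 4OHT libraries, against 5368 and 4990 CPM in the Hdac2 EtOH libraries. Both 4OHT libraries were above both EtOH libraries in 33 of the 42 tested members and below them in 2. The shares over all genes tested were 38.6% and 39.7%, so libraries that do not overlap were common in this line.

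**Figure D1:**
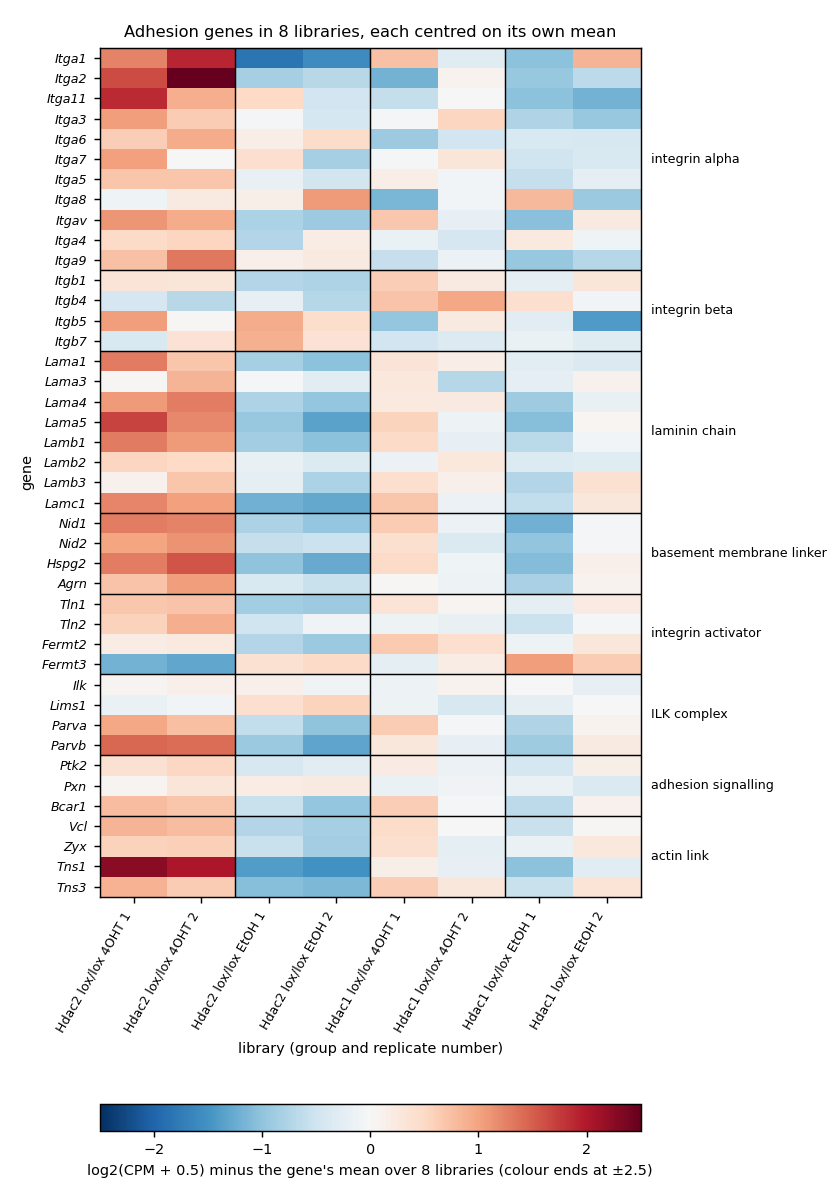
Level of each of the 42 tested members in the 8 libraries, as log2(CPM + 0.5) minus that gene's mean over the libraries. Rows are genes grouped by role, columns are the libraries of the 4 groups. The median member lay 0.75 and 0.71 above its own mean in the Hdac2 4OHT libraries and 0.56 and 0.75 below it in the Hdac2 EtOH libraries, with the Hdac1 libraries between or level with these.

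Marker genes of endothelium and of other cell types also differed between these libraries. In this line 18.9% of all genes tested rose and 17.2% fell. The summed level of 15 endothelial markers was 7604 and 10036 CPM in the Hdac2 4OHT libraries, against 3662 and 3758 CPM in the Hdac2 EtOH libraries, and 10 of the 15 rose. The sum of 15 blood markers was 662 and 531 CPM with 4OHT, against 2106 and 1966 CPM with EtOH, and 6 fell while 2 rose. Summed endothelial markers thus stood higher, and summed blood markers lower, in the same libraries in which the adhesion genes were high. The blood list was mixed, with 9 estimates below 0 and 6 above. Embryonic globin Hbb-bh1 had 138 and 88.5 CPM with 4OHT, against 937 and 849 CPM with EtOH. Ptprc had 2.95 and 4.18 CPM with 4OHT, against 0.713 and 0.287 CPM with EtOH. For 15 smooth muscle and mesenchyme markers the sum was 6737 and 4488 CPM with 4OHT, against 2266 and 1611 CPM with EtOH, and 7 of 13 tested rose. For 11 macrophage markers it was 77.8 and 71.9 CPM with 4OHT, against 36.4 and 50.8 CPM with EtOH, and 6 of 9 tested rose. No marker of these 4 lists was at 0 in every library. The part of these cells in the values of the adhesion genes was not tested, and fewer cells of a type and less RNA per cell cannot be told apart in bulk samples.

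Of the 11 tested integrin α chains, 6 rose and none fell. The highest estimates were those of collagen-binding chains. Itga1 (ENSMUSG00000042284, chr13:114958079-115101964, mm10, minus strand), the α1 chain that binds collagen and laminin, had 114 and 182 CPM in the Hdac2 4OHT libraries, against 13.2 and 15.8 CPM in the Hdac2 EtOH libraries, a log2 fold change of 3.36 ± 0.64 (adjusted p = 0.012). Itga2, the α2 chain of the collagen receptor of platelets and endothelium, had 13.0 and 26.1 CPM in the Hdac2 4OHT libraries, against 1.94 and 2.2 CPM in the Hdac2 EtOH libraries, a change of 3.24 ± 0.54 (adjusted p = 0.0094). In both genes each 4OHT library was above each EtOH library, as in 38.6% of all genes tested in this line. Pelo lies within Itga1 on the same strand with 0.826 times its counts, so the level of Itga1 is uncertain.

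The α chains of fibronectin receptors were already well expressed. Itga5, the α5 chain that pairs with β1 to bind fibronectin, had 276 and 279 CPM in the Hdac2 4OHT libraries, against 151 and 125 CPM in the Hdac2 EtOH libraries, a log2 fold change of 1.01 ± 0.19 (adjusted p = 0.011). Itgav, the αV chain of RGD-binding receptors, had 307 and 274 CPM in the Hdac2 4OHT libraries, against 82.6 and 76.1 CPM in the Hdac2 EtOH libraries, a change of 1.87 ± 0.43 (adjusted p = 0.018). Itga9, whose receptor lymphatic endothelium uses, had 37.2 and 55.4 CPM in the Hdac2 4OHT libraries, against 24.1 and 25.9 CPM in the Hdac2 EtOH libraries, a change of 0.89 ± 0.25 (adjusted p = 0.029). In all of these the 4OHT and EtOH libraries did not overlap, as in most genes tested in this line. Among laminin-binding chains Itga3 rose, with 384 and 288 CPM in the Hdac2 4OHT libraries, against 179 and 135 CPM in the Hdac2 EtOH libraries, a change of 1.10 ± 0.25 (adjusted p = 0.018). Itga6, the other main laminin-binding chain, had 209.8 and 259 CPM in the Hdac2 4OHT libraries, against 153 and 187 CPM in the Hdac2 EtOH libraries, and its change of 0.46 ± 0.20 did not pass (adjusted p = 0.11). The level of Itga6 is uncertain, because 326 bases are identical in RP24-331H14.2, which had 1997 counts over the 8 libraries, against 16564 for Itga6. Itga4, which binds VCAM1 and fibronectin, had a change of 0.72 ± 0.30 (adjusted p = 0.088), and its interval was 0.04 to 1.41. Itga7, Itga8 and Itga11 stayed below 14 CPM in all 8 libraries and did not pass the test.

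Itgb1 (ENSMUSG00000025809, chr8:128685654-128733200, mm10, plus strand), the β1 chain that most of these α chains share, had 1767 and 1735 CPM in the Hdac2 4OHT libraries, against 852 and 824 CPM in the Hdac2 EtOH libraries, a log2 fold change of 1.06 ± 0.23 (adjusted p = 0.015). Per kilobase of exon it was the most abundant of the 18 integrin genes of the set, at 433 and 425 CPM per kilobase in the Hdac2 4OHT libraries and 209 and 202 CPM per kilobase in the Hdac2 EtOH libraries. The next of the 6 β chains of the set, which does not hold Itgb3, was Itgb5, at 9.04 and 4.40 CPM per kilobase with 4OHT and 8.30 and 5.86 CPM per kilobase with EtOH. No other β chain of the set rose. Itgb5, a partner of αV, had a log2 fold change of -0.08 ± 0.53, with an interval of -1.31 to 1.16. Itgb4, the chain of epithelial hemidesmosomes, had 2.25 and 1.78 CPM in the Hdac2 4OHT libraries, against 2.66 and 1.72 CPM in the Hdac2 EtOH libraries, and Itgb7, a partner of α4, was at or under 2.01 CPM in all libraries. Neither passed the test in the Hdac2 line.

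Of the 8 tested laminin chains 6 rose and none fell, with an α, a β and a γ chain among them. Lamc1, the γ1 chain present in most laminins, had 1045 and 907 CPM in the Hdac2 4OHT libraries, against 194 and 184 CPM in the Hdac2 EtOH libraries, a log2 fold change of 2.37 ± 0.36 (adjusted p = 0.0087). Lamb1, the β1 chain, had 496 and 422 CPM in the Hdac2 4OHT libraries, against 109.9 and 99.2 CPM in the Hdac2 EtOH libraries, a change of 2.13 ± 0.29 (adjusted p = 0.0081). The α chains that vessels use are α4 and α5. Lama5 had 341 and 246 CPM in the Hdac2 4OHT libraries, against 54.6 and 41.6 CPM in the Hdac2 EtOH libraries, a change of 2.61 ± 0.41 (adjusted p = 0.0087). Lama4 had 234 and 272 CPM in the Hdac2 4OHT libraries, against 66.0 and 57.3 CPM in the Hdac2 EtOH libraries, a change of 2.04 ± 0.24 (adjusted p = 0.0066). For each of these chains the lower 4OHT library was above the higher EtOH library, as in 38.6% of all genes tested in this line. Lama1, the α1 chain of early embryonic basement membranes, had 65.9 and 43.4 CPM in the Hdac2 4OHT libraries, against 14.8 and 12.9 CPM in the Hdac2 EtOH libraries, a change of 1.98 ± 0.23 (adjusted p = 0.0064). Lamb2, the β2 chain, had 107 and 104 CPM in the Hdac2 4OHT libraries, against 64.2 and 58.2 CPM in the Hdac2 EtOH libraries, a change of 0.79 ± 0.17 (adjusted p = 0.016), the smallest among the laminin chains that rose. Lama3 and Lamb3, chains of epithelial laminin, stayed at or under 2.84 CPM in every library and did not pass. Lama2, the chain of muscle laminin, had no count in 6 of the 8 libraries and at most 0.0648 CPM.

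All 4 linkers of the basement membrane rose, and their summed level was 4193 and 4727 CPM in the Hdac2 4OHT libraries, against 1011 and 891 CPM in the Hdac2 EtOH libraries. Hspg2 (ENSMUSG00000028763, chr4:137468769-137570630, mm10, plus strand), which encodes the proteoglycan perlecan, had 2124 and 2607 CPM in the Hdac2 4OHT libraries, against 436 and 365 CPM in the Hdac2 EtOH libraries, a log2 fold change of 2.56 ± 0.41 (adjusted p = 0.0087). Nid1, nidogen 1, which bridges laminin γ1 and collagen IV, had 1491 and 1460.1 CPM in the Hdac2 4OHT libraries, against 358 and 315 CPM in the Hdac2 EtOH libraries, a change of 2.13 ± 0.39 (adjusted p = 0.012). Nid2, the other nidogen, had 398 and 433 CPM in the Hdac2 4OHT libraries, against 133 and 137 CPM in the Hdac2 EtOH libraries, a change of 1.62 ± 0.35 (adjusted p = 0.015), and it overlaps 2700060E02Rik on the opposite strand, which leaves its level uncertain. Agrn, the proteoglycan agrin, had 179.7 and 227 CPM in the Hdac2 4OHT libraries, against 84.1 and 73.8 CPM in the Hdac2 EtOH libraries, a change of 1.36 ± 0.29 (adjusted p = 0.015).

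The 4 integrin activators changed in both directions. Both genes for talin, the protein that opens the receptor, rose. Tln1 had 768 and 793 CPM in the Hdac2 4OHT libraries, against 262 and 256 CPM in the Hdac2 EtOH libraries, a log2 fold change of 1.59 ± 0.20 (adjusted p = 0.0069). Tln2 had 15.0 and 19 CPM in the Hdac2 4OHT libraries, against 6.81 and 9.26 CPM in the Hdac2 EtOH libraries, a change of 1.09 ± 0.27 (adjusted p = 0.022). The kindlins, which assist talin, moved apart. Fermt2, the kindlin of most adherent cells, had 155 and 161 CPM in the Hdac2 4OHT libraries, against 81.6 and 71.6 CPM in the Hdac2 EtOH libraries, a change of 1.04 ± 0.19 (adjusted p = 0.011). Fermt3 (ENSMUSG00000024965, chr19:6998958-7019469, mm10, minus strand), which blood cells use, had 44.8 and 41.5 CPM in the Hdac2 4OHT libraries, against 134 and 143 CPM in the Hdac2 EtOH libraries, and fell by 1.68 ± 0.21 on the log2 scale (adjusted p = 0.0071). Both kindlins separated the 4OHT from the EtOH libraries, in opposite directions, as did most genes tested in this line.

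In the ILK complex the parvins rose, PINCH1 fell and the kinase itself did not pass the test. Parvb, β-parvin, had 393 and 387 CPM in the Hdac2 4OHT libraries, against 76.5 and 58.4 CPM in the Hdac2 EtOH libraries, a log2 fold change of 2.53 ± 0.37 (adjusted p = 0.0087). Parva, α-parvin, had 432 and 374 CPM in the Hdac2 4OHT libraries, against 143 and 109.5 CPM in the Hdac2 EtOH libraries, a change of 1.67 ± 0.33 (adjusted p = 0.013). Lims1, which encodes PINCH1, the adaptor that binds ILK, had 221 and 237 CPM in the Hdac2 4OHT libraries, against 331 and 365 CPM in the Hdac2 EtOH libraries, and fell by 0.60 ± 0.17 on the log2 scale (adjusted p = 0.029). Transcripts of this complex thus did not all move the same way. Ilk, integrin-linked kinase, had 157 and 163 CPM in the Hdac2 4OHT libraries, against 163 and 139 CPM in the Hdac2 EtOH libraries, and its change of 0.08 ± 0.17 had an interval of -0.30 to 0.46. Its level is uncertain, because it overlaps Rrp8 and Taf10 on the opposite strand, shares a stretch of transcript with Taf10 and resembles Gm6263.

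Among adhesion signalling genes Bcar1 and Ptk2 rose. Bcar1, which encodes the scaffold p130Cas, had 498 and 475 CPM in the Hdac2 4OHT libraries, against 199 and 149.7 CPM in the Hdac2 EtOH libraries, a log2 fold change of 1.48 ± 0.31 (adjusted p = 0.015). Ptk2, focal adhesion kinase, had 138 and 152 CPM in the Hdac2 4OHT libraries, against 80.6 and 88.9 CPM in the Hdac2 EtOH libraries, a change of 0.77 ± 0.23 (adjusted p = 0.035). Pxn, the scaffold paxillin to which the kinase binds, had 153 and 179.9 CPM in the Hdac2 4OHT libraries, against 165 and 171 CPM in the Hdac2 EtOH libraries. Its change was -0.02 ± 0.16 with an interval of -0.37 to 0.34, and its libraries overlapped between the agents.

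All 4 genes that link adhesions to actin rose. Tns1 (ENSMUSG00000055322, chr1:73910231-74124449, mm10, minus strand), tensin 1, which ties integrin tails to actin filaments in mature adhesions, had 215 and 183 CPM in the Hdac2 4OHT libraries, against 16.6 and 15.2 CPM in the Hdac2 EtOH libraries, a log2 fold change of 3.64 ± 0.29 (adjusted p = 0.0041), the highest fold change of any member. Tns3, another tensin, had 257 and 218 CPM in the Hdac2 4OHT libraries, against 66.5 and 63.9 CPM in the Hdac2 EtOH libraries, a change of 1.86 ± 0.29 (adjusted p = 0.0087). Vinculin and zyxin load onto adhesions under tension. Vcl had 1091 and 1041 CPM in the Hdac2 4OHT libraries, against 364 and 341 CPM in the Hdac2 EtOH libraries, a change of 1.60 ± 0.24 (adjusted p = 0.0087), with an uncertain level since it overlaps Ap3m1 on the opposite strand. Zyx had 510.3 and 516 CPM in the Hdac2 4OHT libraries, against 232 and 189 CPM in the Hdac2 EtOH libraries, a change of 1.29 ± 0.26 (adjusted p = 0.013). No 4OHT library of any of these genes reached down to an EtOH library, and 38.6% of all genes tested were likewise higher in both 4OHT libraries.

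Promoters of the members were searched for the letters of known factor sites. RefSeq windows of 300 bases, from 250 bases before to 50 bases after the start of transcription, were used for 34 of the 46 genes (42 windows, GRCm38.p6). Letters of the CArG box, the known site of serum response factor, were present on either strand in 4 of these windows (9.52%), against 1.63% of the 32851 windows of all genes. GGAATG or its reverse complement CATTCC, the core of known TEAD sites, was present in 5 windows (11.9%), against 14.7% of all windows. The CArG genes were Vcl and Fermt2, which rose, and Itgb6 and Lama2, which were at or near 0. The GGAATG genes were Vcl, Nid1 and Itgb1, which rose, and Lamb3 and Itga10, which were low. A match says only that the letters are there, and the 2 motifs do not overlap in Vcl. The 250 bases before the start are printed below for Vcl, Fermt2, Nid1 and Itgb1, the members with a motif that rose, with the motif in capitals. The Vcl stretch is chr14:20929148-20929397 on the plus strand with the CArG box 227 bases and GGAATG 143 bases before the start, and that of Fermt2 is chr14:45530066-45530315 on the minus strand with the CArG box 204 bases before it. The Nid1 stretch is chr13:13437352-13437601 on the plus strand with GGAATG 165 bases before the start, and that of Itgb1 is chr8:128685404-128685653 on the plus strand with GGAATG 7 bases before it.
Vcl: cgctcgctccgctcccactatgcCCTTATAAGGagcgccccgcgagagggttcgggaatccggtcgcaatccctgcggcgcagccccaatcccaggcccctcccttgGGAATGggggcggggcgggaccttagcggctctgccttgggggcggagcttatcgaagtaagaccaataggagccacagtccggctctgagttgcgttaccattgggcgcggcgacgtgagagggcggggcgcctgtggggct
Fermt2: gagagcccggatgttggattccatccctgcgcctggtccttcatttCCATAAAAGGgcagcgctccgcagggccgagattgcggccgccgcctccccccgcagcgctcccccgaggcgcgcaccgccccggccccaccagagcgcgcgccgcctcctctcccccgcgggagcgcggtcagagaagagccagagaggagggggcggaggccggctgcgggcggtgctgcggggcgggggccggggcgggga
Nid1: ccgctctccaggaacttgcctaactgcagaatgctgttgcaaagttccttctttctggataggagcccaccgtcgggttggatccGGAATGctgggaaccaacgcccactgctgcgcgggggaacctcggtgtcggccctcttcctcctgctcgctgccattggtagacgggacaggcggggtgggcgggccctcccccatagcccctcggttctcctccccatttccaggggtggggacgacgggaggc
Itgb1: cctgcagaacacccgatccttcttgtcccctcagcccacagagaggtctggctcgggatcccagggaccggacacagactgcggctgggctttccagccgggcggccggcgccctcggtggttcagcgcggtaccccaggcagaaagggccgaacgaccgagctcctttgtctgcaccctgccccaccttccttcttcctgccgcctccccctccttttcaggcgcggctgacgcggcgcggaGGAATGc

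**Figure D2:**
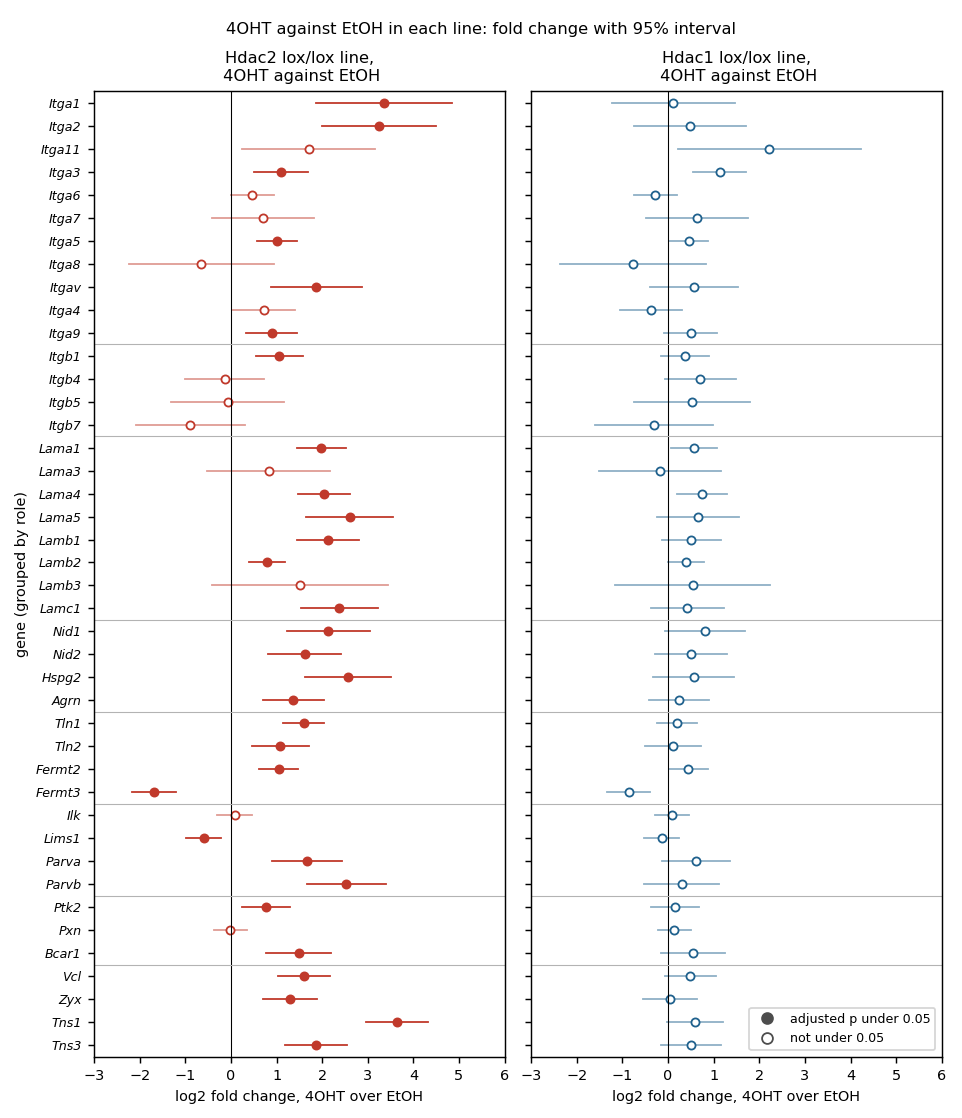
Log2 fold change of 4OHT over EtOH with its 95% interval for the 42 tested members, in the Hdac2 line and in the Hdac1 line, with genes grouped by role. In the Hdac2 line 28 members rose and 2 fell, while in the Hdac1 line no member passed the test and 35 of 42 point estimates were above 0.

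The make-up of some families shifted with the agent in the Hdac2 line. Shares were taken per kilobase of exon among the genes of a family that are in the set, and are described without a test. Genes of these families outside the set, such as Fermt1 and Tns4, were not counted. Fermt2 made up 79.4% and 81.2% of Fermt2 and Fermt3 transcripts in the Hdac2 4OHT libraries, against 40.5% and 35.8% in the Hdac2 EtOH libraries. Tns1 made up 36.8% and 37.0% of the 2 tensins of the set with 4OHT, against 14.8% and 14.2% with EtOH. Among laminin β chains the share of Lamb1 was 73.8% and 71.0% with 4OHT, against 51.0% and 51.1% with EtOH. Parvb was 67.7% and 70.5% of Parva and Parvb transcripts with 4OHT, against 55.1% and 55.1% with EtOH. In these 4 families the agents did not overlap in the Hdac2 line. In the Hdac1 line the share of Parvb was lower with 4OHT, at 54.5% and 57.4%, against 57.8% and 62.6% with EtOH. There the share of Lamb1 overlapped, at 71.8% and 54.6% with 4OHT, against 56.9% and 66.2% with EtOH. The values that follow are again those of the Hdac2 line. Among the 12 integrin α chains of the set, which leave out Itga2b and other chains of blood cells, the leading pair Itga3 and Itga5 did not keep an order. Of the transcripts of these 12 chains Itga3 held 34.5% and 26.8% with 4OHT, against 33.2% and 27.4% with EtOH, and Itga5 held 28.7% and 30.1% with 4OHT, against 32.3% and 29.3% with EtOH. The share of Itgav was 14.6% and 13.6% with 4OHT, against 8.14% and 8.19% with EtOH. Among laminin α chains the share of Lama1 was 12.1% and 9.17% with 4OHT, against 12.8% and 13.5% with EtOH, and Lama4 and Lama5 held most of the rest. The share of Lama5 was 53.2% and 44.2% with 4OHT, against 40.2% and 37.2% with EtOH.

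**Figure D3:**
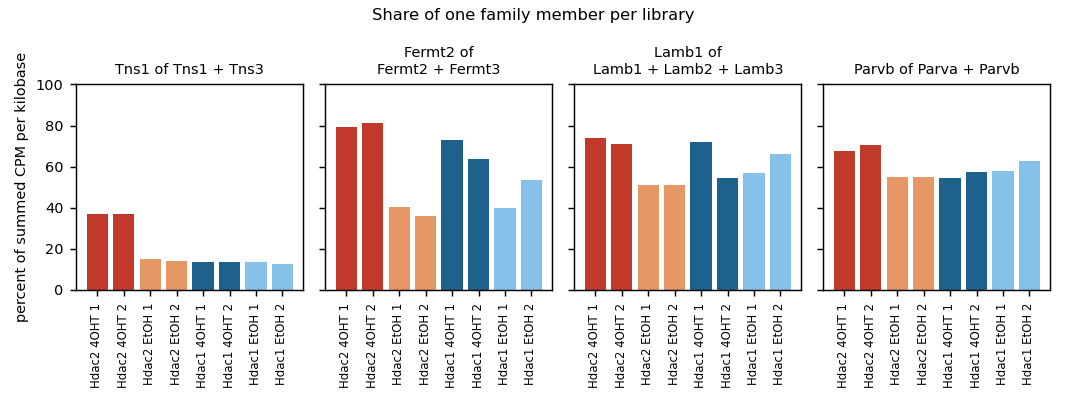
Share of Tns1, Fermt2, Lamb1 and Parvb among the genes of their family that are in the set, in percent of their summed CPM per kilobase. There is 1 bar per library in the 4 groups. In the Hdac2 line every 4OHT bar is higher than every EtOH bar in each panel, and in the Hdac1 line Tns1 lies between 12.6% and 13.7% in all 4 libraries.

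The direction of these calls did not rest on a single library, though the number of calls did. There were 14 members that passed the test without Hdac2 4OHT replicate 1, 2 (Tns1 and Lama1) without Hdac2 4OHT replicate 2 and 1 (Tns1) without Hdac2 EtOH replicate 1. Without Hdac2 EtOH replicate 2, the library with the Y-linked transcripts, edgeR called 0, where all 30 kept their sign and 29 had an unadjusted p under 0.05 (all but Lims1). Without that library the median log2 fold change of the members was 1.22. In these fits the lone library is assumed to vary like the other groups, and leaving out any library of the Hdac1 line left the same 30 calls.

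Genes that work with the members were counted in 5 further lists, 136 genes in all, in the Hdac2 line. The lists were chosen with earlier results of these data known. Of all genes tested 36.1% were called there, with 18.9% risen and 17.2% fallen. Of 18 tested integrin ligands 12 rose and none fell, a share called of 66.7%, with a median log2 fold change of 1.83. Among them Fn1, fibronectin, was at 7597 ± 432 CPM with 4OHT and 2618 ± 110 CPM with EtOH (SD, n = 2 each), a log2 fold change of 1.54 ± 0.23. Icam1, Madcam1 and Ctgf had changes of 1.97 ± 0.28, 1.76 ± 0.25 and 1.89 ± 0.33. These ligands were higher in the same libraries in which 7 of the 15 tested integrin chains of the set rose. Whether each ligand rose together with its own receptor was not tested. Of 17 other basement membrane genes 8 rose and none fell, a share called of 47.1%. Col4a1 and Col4a2, the chains of the main collagen IV trimer, were at 5070 ± 546 and 3834 ± 309 CPM with 4OHT, against 511 ± 56.6 and 619 ± 98.4 CPM with EtOH, changes of 3.31 ± 0.53 and 2.63 ± 0.41. Col4a5 and Fbln2 changed by 2.24 ± 0.39 and 2.21 ± 0.49.

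Of 64 other focal adhesion genes 36 rose and 3 fell, a share called of 60.9%, against 36.1% of all genes tested. Cav1, the caveolar coat protein, was at 192 ± 25.4 CPM with 4OHT and 23.6 ± 2.52 CPM with EtOH, a log2 fold change of 3.02 ± 0.28. Actn4, an actin crosslinker, changed by 1.75 ± 0.25, and Apbb1ip, which recruits talin through RAP1 in blood cells, by 2.36 ± 0.32. Rap1a, the small GTPase upstream of talin, fell by 1.21 ± 0.14 on the log2 scale. The laminin receptors and partners outside the integrins were mixed, with 5 of 17 risen and 1 fallen, a share called of 35.3%, near the 36.1% of all genes tested. Sdc3, Sspn and Utrn changed by 1.97 ± 0.22, 2.41 ± 0.37 and 1.99 ± 0.35, and Rpsa fell by 1.56 ± 0.36. Of 5 tested other integrin chains, Itgam of macrophages rose by 4.30 ± 0.76 and Itga2b of platelets and early blood cells fell by 1.91 ± 0.31. The share called was 40%, near that of all genes tested. Itgam had 14.7 and 15.5 CPM in the Hdac2 4OHT libraries, against 1.30 and 0.0955 CPM in the Hdac2 EtOH libraries. The last value is under that library's floor of 3 counts, 0.287 CPM, so the size of the rise is uncertain. Itgb3, also among the other integrin chains, did not pass, with 526 and 575 CPM in the Hdac2 4OHT libraries, against 619 and 671 CPM in the Hdac2 EtOH libraries. All adjusted p-values of the 18 named genes of these lists that rose or fell were between 0.0041 and 0.018 in edgeR.

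In the Hdac1 line no member passed the test, and none of the 14179 genes did (0% higher and 0% lower). At an unadjusted p under 0.05 there were 7 members and 947 genes in edgeR, while DESeq2 called 32 genes with 1 member, Itga3, and limma-voom called none. The median log2 fold change was 0.47 over the 42 members and -0.02 over all genes, with 35 members above 0. The members' median was 0.21 without Hdac1 4OHT replicate 1 and 0.20 without Hdac1 EtOH replicate 1. It was 0.55 without Hdac1 4OHT replicate 2 and 0.67 without Hdac1 EtOH replicate 2. Itga3 had 181 and 267 CPM in the Hdac1 4OHT libraries, against 109.7 and 95.1 CPM in the Hdac1 EtOH libraries, a change of 1.13 ± 0.25 (adjusted p = 0.71 in edgeR). Fermt3 had 87.5 and 116 CPM in the Hdac1 4OHT libraries, against 212 and 159 CPM in the Hdac1 EtOH libraries, a change of -0.87 ± 0.20 (adjusted p = 0.71). Fermt2 had 213 and 182 CPM in the Hdac1 4OHT libraries, against 125 and 166 CPM in the Hdac1 EtOH libraries, a change of 0.44 ± 0.18 (adjusted p = 0.73). For these 3 genes the libraries of the agents did not overlap. Of all genes tested in this line 15.8% were higher and 15.4% lower in both 4OHT libraries. Lama1 had 33.5 and 29.8 CPM in the Hdac1 4OHT libraries, against 21.9 and 20.8 CPM in the Hdac1 EtOH libraries, and Lama4 had 134 and 131 CPM in the Hdac1 4OHT libraries, against 60.3 and 98.6 CPM in the Hdac1 EtOH libraries, again without overlap.

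For 26 of the 42 members the Hdac1 libraries overlapped between the agents, while 12 were higher and 4 lower in both 4OHT libraries, against 15.8% and 15.4% of all genes. Replicates of the same group stood apart. Hdac1 EtOH replicate 2 stood above replicate 1 in 30 of 42 members, by a median of 0.43 on the log2 scale, and Hdac1 4OHT replicate 1 stood above replicate 2 in 28 of 42, by a median of 0.26. Hspg2 had 1223 and 809.7 CPM in the Hdac1 4OHT libraries, against 414 and 959 CPM in the Hdac1 EtOH libraries. Nid1 had 953 and 557 CPM in the Hdac1 4OHT libraries, against 269 and 593 CPM in the Hdac1 EtOH libraries. Lamc1 had 719 and 399 CPM in the Hdac1 4OHT libraries, against 292 and 543 CPM in the Hdac1 EtOH libraries. In each, the higher EtOH library exceeded the lower 4OHT library. Among integrin chains the same held for Itga1, which had 80.6 and 38.7 CPM in the Hdac1 4OHT libraries, against 23.3 and 86.7 CPM in the Hdac1 EtOH libraries. It held for Itgav, which had 229 and 125 CPM in the Hdac1 4OHT libraries, against 69.3 and 168 CPM in the Hdac1 EtOH libraries. It held for Lama5, which had 155 and 96.5 CPM in the Hdac1 4OHT libraries, against 50.5 and 109 CPM in the Hdac1 EtOH libraries. Inside the cell, β-parvin, talin 1 and vinculin transcripts overlapped in the same way. Parvb had 178 and 126 CPM in the Hdac1 4OHT libraries, against 78.1 and 170.1 CPM in the Hdac1 EtOH libraries. Tln1 had 608 and 507 CPM in the Hdac1 4OHT libraries, against 414 and 558 CPM in the Hdac1 EtOH libraries. Vcl had 839.9 and 616 CPM in the Hdac1 4OHT libraries, against 414 and 624 CPM in the Hdac1 EtOH libraries. Sums of endothelial and of blood markers parted the same replicates. Endothelial markers summed to 7202 and 5359 CPM in the Hdac1 4OHT libraries, against 4409 and 6534 CPM in the Hdac1 EtOH libraries, and blood markers to 516 and 825 CPM with 4OHT, against 1415 and 741 CPM with EtOH. Their part in the members' values was not tested.

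More laminin and actin link genes overlapped between the agents in the Hdac1 line. Lamb1 had 281 and 174 CPM in the Hdac1 4OHT libraries, against 125 and 193 CPM in the Hdac1 EtOH libraries. Tns3 had 215 and 171 CPM in the Hdac1 4OHT libraries, against 94.7 and 178 CPM in the Hdac1 EtOH libraries. Zyx had 453 and 288 CPM in the Hdac1 4OHT libraries, against 307 and 415 CPM in the Hdac1 EtOH libraries. In each the higher EtOH library lay above the lower 4OHT library. Tns1 had 49.0 and 38.5 CPM in the Hdac1 4OHT libraries, against 21.4 and 36.8 CPM in the Hdac1 EtOH libraries, and here the agents did not overlap, with a change of 0.59 ± 0.26 (adjusted p = 0.76). The share of Tns1 among the tensins of the set was 13.7% and 13.6% with 4OHT, against 13.7% and 12.6% with EtOH, so the shift seen in the Hdac2 line had no counterpart in these 4 values. The share of Fermt2 among the kindlins of the set was 73.1% and 63.5% with 4OHT, against 39.7% and 53.7% with EtOH. Itgb1 had 2161 and 1650.3 CPM in the Hdac1 4OHT libraries, against 1208 and 1734 CPM in the Hdac1 EtOH libraries, which overlap, and Bcar1 had 446 and 288 CPM in the Hdac1 4OHT libraries, against 186 and 316 CPM in the Hdac1 EtOH libraries, which overlap as well. Ilk had 136 and 158 CPM in the Hdac1 4OHT libraries, against 149 and 128 CPM in the Hdac1 EtOH libraries, and its change of 0.08 ± 0.17 had an interval of -0.30 to 0.47.

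The other genes that rose or fell in the Hdac2 line had no call in the Hdac1 line either. Itga5 had 192 and 163 CPM in the Hdac1 4OHT libraries, against 114 and 146 CPM in the Hdac1 EtOH libraries. Lamb2 had 66.6 and 87.9 CPM in the Hdac1 4OHT libraries, against 58.0 and 59.6 CPM in the Hdac1 EtOH libraries. In Itga5 and Lamb2 both 4OHT libraries were above both EtOH libraries. Ptk2 had 123 and 96.1 CPM in the Hdac1 4OHT libraries, against 78.0 and 118 CPM in the Hdac1 EtOH libraries. Nid2 had 262 and 156 CPM in the Hdac1 4OHT libraries, against 100.3 and 196 CPM in the Hdac1 EtOH libraries. Agrn had 112 and 99.7 CPM in the Hdac1 4OHT libraries, against 62.4 and 116 CPM in the Hdac1 EtOH libraries. In these 3 genes Hdac1 EtOH replicate 2 reached above the lower 4OHT library. It did so too for Parva, which had 342 and 215 CPM in the Hdac1 4OHT libraries, against 131 and 234 CPM in the Hdac1 EtOH libraries, and for Tln2, which had 8.95 and 8.6 CPM in the Hdac1 4OHT libraries, against 6.66 and 9.55 CPM in the Hdac1 EtOH libraries. Lims1 had 227 and 189 CPM in the Hdac1 4OHT libraries, against 212 and 247 CPM in the Hdac1 EtOH libraries, which overlap. Itga2, low throughout this line, had 1.41 and 4.10 CPM in the Hdac1 4OHT libraries, against 1.75 and 2.25 CPM in the Hdac1 EtOH libraries, and the agents overlapped. Itga9 had 14.6 and 19.8 CPM in the Hdac1 4OHT libraries, against 11.2 and 13.2 CPM in the Hdac1 EtOH libraries. Itgb4 had 5.50 and 6.61 CPM in the Hdac1 4OHT libraries, against 4.42 and 3 CPM in the Hdac1 EtOH libraries, and like Itga9 it was higher in both 4OHT libraries. Itga6, in contrast, was lower in both 4OHT libraries, with 72.4 and 98.2 CPM in the Hdac1 4OHT libraries, against 105 and 103 CPM in the Hdac1 EtOH libraries.

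**Figure D4:**
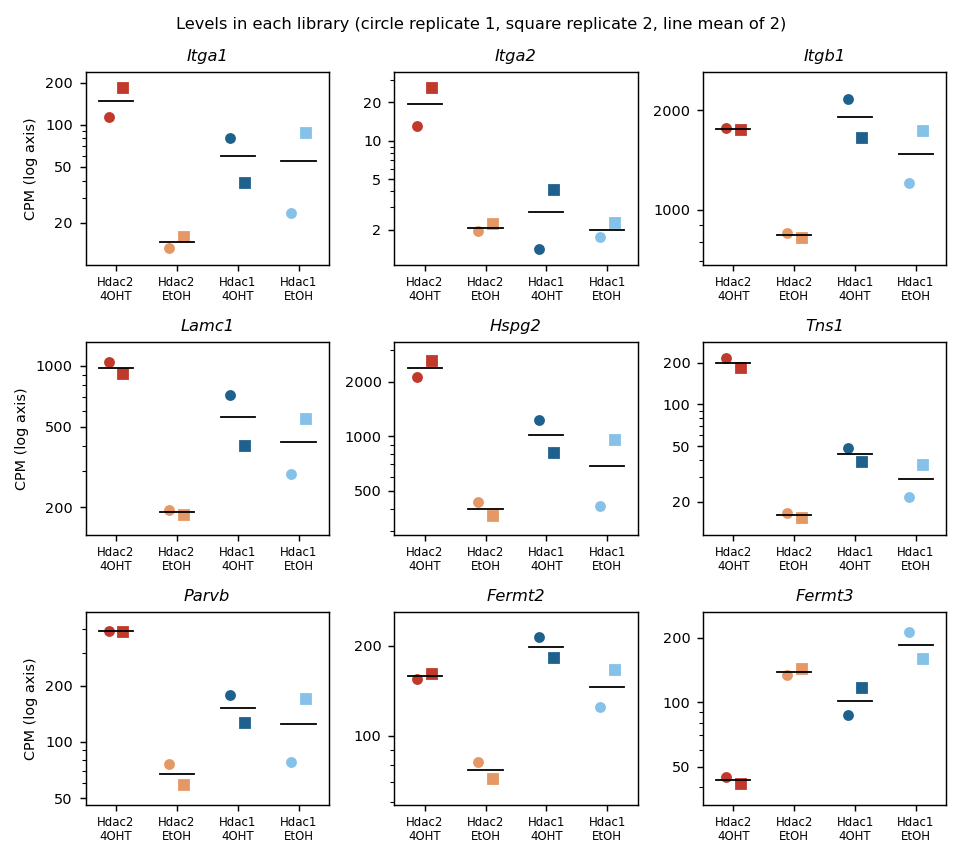
CPM on a log axis of Itga1, Itga2, Itgb1, Lamc1, Hspg2, Tns1, Parvb, Fermt2 and Fermt3, with 1 point per library in the 4 groups and a bar at each group mean. In the Hdac2 line the 4OHT and EtOH points are apart in every panel, and in the Hdac1 line they overlap for Itga1, Itga2, Itgb1, Lamc1, Hspg2 and Parvb.

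Whether the effect of 4OHT differed between the lines was tested directly. No member passed in edgeR, and 22 of 42 had an unadjusted p under 0.05, as had 3973 of 14179 genes. DESeq2 called 14 members and 1781 genes, and limma-voom called 0 members and 1 gene. In edgeR 0.0141% of all genes were called with a higher effect in the Hdac2 line and 0.0141% with a lower one. The median difference over the members, Hdac2 minus Hdac1 line, was 0.99, and it was 0.59 without Hdac1 EtOH replicate 2 and 1.24 without Hdac1 EtOH replicate 1. Tns1 came closest, with a difference of 3.06 ± 0.38 (adjusted p = 0.062), followed by Tln1 with 1.40 ± 0.27 (adjusted p = 0.072) and Lama1 with 1.41 ± 0.32 (adjusted p = 0.079). These estimates are large beside their errors but did not pass. The number of calls moved with the Hdac1 EtOH library left out, among the members and among all genes tested. For Itga3 the difference was -0.04 ± 0.35, with an interval of -0.86 to 0.78, and for Ilk it was -0.00 ± 0.23, with an interval of -0.54 to 0.54.

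The lines were also compared with each other under the same agent, in comparisons that share libraries with those above. Between the EtOH libraries 3 members differed, 1 higher and 2 lower in the Hdac2 line, where 2.91% of genes were higher and 6.42% lower. Itga9 was higher, with 24.1 and 25.9 CPM in the Hdac2 EtOH libraries, against 11.2 and 13.2 CPM in the Hdac1 EtOH libraries, a log2 fold change of 1.03 ± 0.25 (adjusted p = 0.044). Tln1, with 262 and 256 CPM in Hdac2 EtOH against 414 and 558 CPM in Hdac1 EtOH libraries, was lower, with a change of -0.91 ± 0.19 (adjusted p = 0.034). Fermt2, with 81.6 and 71.6 CPM in Hdac2 EtOH against 125 and 166 CPM in Hdac1 EtOH libraries, was lower too, with a change of -0.93 ± 0.19 (adjusted p = 0.032). At 3 of 42 members, 7.14%, the share called was near the 9.33% of all genes. Without Hdac1 EtOH replicate 1 there were 17 calls, and without any 1 of the 4 Hdac2 libraries, or without Hdac1 EtOH replicate 2, there were none, though all 3 kept their sign with an unadjusted p under 0.05. The number of calls over all genes tested moved with the library left out as well. The members' median log2 fold change was -0.36, and 0.03 without Hdac1 EtOH replicate 2.

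Between the 4OHT libraries 6 members differed, 4 higher and 2 lower in the Hdac2 line, where 3.75% of genes were higher and 4.27% lower. Itga2 was at 13.0 and 26.1 CPM in the Hdac2 4OHT libraries, against 1.41 and 4.10 CPM in the Hdac1 4OHT libraries, a log2 fold change of 2.79 ± 0.52 (adjusted p = 0.026). Tns1 was at 215 and 183 CPM in Hdac2 4OHT against 49.0 and 38.5 CPM in Hdac1 4OHT libraries, a change of 2.19 ± 0.27 (adjusted p = 0.015). Itga6 was at 209.8 and 259 CPM in Hdac2 4OHT against 72.4 and 98.2 CPM in Hdac1 4OHT libraries, a change of 1.46 ± 0.21 (adjusted p = 0.018). For these the lower Hdac2 4OHT library was above the higher Hdac1 4OHT library, and the share of all genes tested with this pattern was not counted. Itga9 was at 37.2 and 55.4 CPM in Hdac2 4OHT against 14.6 and 19.8 CPM in Hdac1 4OHT libraries, a change of 1.43 ± 0.25 (adjusted p = 0.024). Itgb4, with 2.25 and 1.78 CPM in Hdac2 4OHT against 5.50 and 6.61 CPM in Hdac1 4OHT libraries, was lower, with a change of -1.58 ± 0.36 (adjusted p = 0.039), and so was Fermt3, with 44.8 and 41.5 CPM in Hdac2 4OHT against 87.5 and 116 CPM in Hdac1 4OHT libraries and a change of -1.24 ± 0.21 (adjusted p = 0.023). Itga6 and Itgb4 thus differed between the lines under 4OHT, while their 4OHT effects within the Hdac2 line did not pass. The number of calls moved with the library left out, among the members and among all genes tested. Leaving out any 1 library of the 4OHT groups ended all 6 calls, though each kept its sign with an unadjusted p under 0.05. Leaving out an Hdac2 EtOH library left 3, and 19 members were called without Hdac1 EtOH replicate 1 or without replicate 2.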

How the data were processed

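The authors deposited raw counts, whole numbers per gene with no scaling, in a table of 41128 genes by 8 libraries, and 0 columns were left unused. Per the labels' protocols, each library was made with a strand-specific kit from 200 ng of total RNA and 15 amplification cycles. Per the submitters' processing notes, build mm10 and the tools edgeR 3.8.5, R 3.1.0, SAMtools 0.1.19, Bowtie2 2.2.1 and bcl2fastq 2.17.1.14 were named, in no stated role. The program, annotation and strand setting of the counting were each not given in the sources used here. Genes that overlap another gene, or resemble a copy, therefore have uncertain values. Of the members, 27 overlap some gene and 4 tested ones overlap a gene with at least 0.1 times their counts, 3 of these on the opposite strand.

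Groups came from the sample titles. Genes were filtered by filterByExpr (minimum count 10), which kept 14179 genes, scaled by TMM and fitted with a mean per group over all 8 libraries by edgeR 4.0.16 (robust quasi-likelihood, R 4.3.3), with 1 spread estimate shared by the groups. P-values were adjusted by Benjamini-Hochberg within each of 5 comparisons, and standard errors were taken from the F statistic. A floor of 3 counts is 0.15 to 0.287 CPM per library, which covers counting error only. DESeq2 1.42.0, limma-voom (limma 3.58.1), other scalings, no filter and fits without each library were alternatives. The model was tested on simulated data. Exon lengths came from GENCODE M21, promoters from RefSeq, and transcript similarity from BLAST 2.17.0.

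The members, the 5 related lists and the 8 marker lists were chosen with earlier results of these data known. Values in every library were to be given for members called in any comparison or highest per kilobase in their role, and of each related list up to 4 called genes with the smallest adjusted p were named. Ddx3y was named after its values were seen. A planned search of protein sequences is not reported here. The other 4 marker lists had, in the Hdac2 line, 3 risen and 1 fallen of 9 tested cardiomyocyte genes, 4 risen of 7 endoderm genes, 1 risen of 8 epithelial genes and 1 fallen of 3 pluripotency genes. Over all genes tested 18.9% rose and 17.2% fell in this line.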

Additional observations from a re-analysis of the deposited data

How the results depend on the processing

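In the Hdac2 line 30 members were called by DESeq2, limma-voom and every scaling, 29 without a filter and 32 with only its own groups fitted; leave-one-out fits gave 0 to 30. Upper-quartile scaling and library size alone moved the median of all genes by -0.13 and -0.12 there, and all 30 calls were kept. In the Hdac1 line the count was 0 in all leave-one-out fits and 1 by DESeq2. For the difference between lines it was 0 to 25 by leave-one-out, 1 with library size only, 11 without a filter and 14 by DESeq2. For the EtOH libraries it was 0 to 17 by leave-one-out, 5 with library size only, 9 without a filter, 13 by DESeq2 and 0 with only the groups compared. For the 4OHT libraries it was 0 to 19 by leave-one-out, 12 without a filter, 17 by DESeq2 and 14 with only the groups compared. Over all genes DESeq2 called 1781, 2801 and 2023 in these 3 comparisons, against 4, 1323 and 1137 by edgeR. The cause was not tested. Replicate numbers were not shown to pair samples: same-numbered deviations from the group means correlated at 0.26 in the Hdac2 line and -0.69 in the Hdac1 line over 14179 genes. With a replicate block 0 members were called in the Hdac2 line, with all 30 keeping their sign and an unadjusted p under 0.05, 0 in the Hdac1 line, 0 for the difference, 0 between the EtOH libraries and 4 between the 4OHT libraries. With the numbers of the Hdac1 line crossed, chosen after seeing the data, the block called 17 members in the Hdac1 line and 29 for the difference. Over all 14179 genes it called 858 and 5852.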
